A study of Homo sapiens with 38 samples.

Results

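The 7 genes followed here are linked to multidrug resistance, namely the export pumps ABCB1, ABCC1, ABCC3, ABCC4, ABCC5 and ABCC10 and the major vault protein MVP. They were taken by symbol, as drug efflux transporter genes plus MVP. Of these 7 symbols, 6 were found among the 18011 genes of the deposited count table. ABCC3 was not analysed here.

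RNA sequencing measured them in 6 established lines of human diffuse large B-cell lymphoma, namely WSUDLCL2, TOLEDO, SUDHL6, SUDHL4, PFEIFFER and OCILY1. Cells received the solvent DMSO, vorinostat or pracinostat, both hydroxamic acids that inhibit histone deacetylases, and RNA was taken at 6 h or at 14 days (14 d). At 6 h there were 6 libraries with DMSO, 6 with pracinostat and 5 with vorinostat, SUDHL6 lacking the last. At 14 d, 5 lines without SUDHL6 each had a pracinostat library, a vorinostat library and a pair of solvent libraries titled DMSOP and DMSOV. Pracinostat was set against DMSOP and vorinostat against DMSOV, which is a reading of the titles. For 6 h the titles say only DMSO. The authors' column names label that library DMSOV in SUDHL4, WSUDLCL2, SUDHL6 and OCILY1, and DMSOP in TOLEDO and PFEIFFER. The 6 h solvent group thus mixes these labels by line, and its libraries served as control for either drug. Tests between the times therefore join different control pairings. The part of this in the results was not tested. The sources used here give no drug doses. A line has 1 library for each treatment at each time and serves as the replicate. Whether cultures were grown separately for each library is not stated. P-values for a drug rest on how its effect varied between lines. Each drug fit took in all groups of its time. Libraries of the other drug, and at 14 d both DMSO sets, thus also set the spread. A line then counts more than once toward it, so it may be understated. P-values between lines in DMSO measure the spread between the DMSO libraries of a line, which may be technical. In tests of the 14 d response between or within lines, both drugs stand in as replicates, as do DMSOP and DMSOV. Differences between the drugs, or between the DMSO sets, thus count as spread there.

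Library totals ran from 3.19 to 8.92 mega counts, and 1 further sample listed for SUDHL4 with vorinostat at 14 d was not analysed here. Levels below are CPM, counts scaled to a common library total, with library sizes scaled by the trimmed mean of M-values (TMM). The labelled B-cell identity was checked with MS4A1, CD79A, CD79B, PAX5 and CD22, and no library was at 0 for any of these 5 markers. With either drug 4 of them fell at 6 h, CD22 being the exception, and 2 rose at 14 d, MS4A1 and PAX5 with pracinostat and MS4A1 and CD79B with vorinostat. Of 5 T-cell markers 3 were measured, with median sums of at most 2.68 CPM in every group and highest sums of 500 to 1214 CPM by group; CD8A reached 1213 CPM, CD3D at most 3.26 and CD3E at most 3.35 CPM. CD3D was at 0 in 29 of 37 libraries. Of 5 stromal or epithelial markers 4 were measured, with sums of 0 to 281 CPM in DMSO libraries and 1.78 to 244 CPM with a drug. COL1A1 rose at 6 h by 2.00 with pracinostat and 1.29 with vorinostat, and PECAM1 rose by 2.56 with pracinostat at 14 d. KRT8 was at 0 in 27 of 37 libraries, whereas EPCAM reached 270 CPM, with a median of 0.150 CPM over all libraries. The 3 of 6 listed myeloid markers that were measured, ITGAM, CSF1R and CD33, rose at 14 d with either drug. Their summed level was at most 1.67 CPM in every 14 d DMSO library. It ran from 0.780 to 19.5 CPM with pracinostat and from 1.08 to 37.1 CPM with vorinostat. The lowest drug libraries thus lay within the DMSO range. The median share of counts from mitochondrial genes was 8.76% in DMSOP and 10.9% in DMSOV, against 14.7% with pracinostat and 16.5% with vorinostat at 14 d. The part of these shifts in the results below was not tested. In such bulk samples, fewer cells making a transcript and less transcript per cell cannot be told apart.

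ATP-binding cassette (ABC) pumps use ATP to move compounds out of the cell. ABCB1, or P-glycoprotein, is the classical multidrug pump and carries anthracyclines and vinca alkaloids, drug classes that are used against this lymphoma. The ABCC proteins are known as multidrug resistance-associated proteins and export mostly organic anions, among them glutathione conjugates and nucleotide analogues. MVP is the main building block of vaults, large barrel-shaped ribonucleoprotein particles of the cytoplasm, and was first described in drug-resistant cancer cells as the lung resistance-related protein.

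Upstream sequence is shown for 4 members, since ABCB1 and MVP rose, ABCC4 fell and ABCC5 had fold changes of opposite sign at the different times. RefSeq windows (build GRCh38.p14) were matched by symbol for 5 of the 6 measured members. Each run below is the 250 bases before an annotated start, read 5′ to 3′ on the strand of the gene. Capitals mark matches, on either strand, to 4 motifs. They are the CCAAT box, the GC box with the letters GGGCGG, the TATA box searched as TATAAA, and the motif of AP-1 factors searched as TGANTCA.
ABCB1, chr7:87600885-87601134, minus strand: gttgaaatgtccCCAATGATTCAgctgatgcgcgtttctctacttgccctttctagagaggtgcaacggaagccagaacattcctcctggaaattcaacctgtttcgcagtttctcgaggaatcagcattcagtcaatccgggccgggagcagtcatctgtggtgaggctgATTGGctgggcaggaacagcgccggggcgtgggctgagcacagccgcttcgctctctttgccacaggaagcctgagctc
MVP, chr16:29820144-29820393, plus strand: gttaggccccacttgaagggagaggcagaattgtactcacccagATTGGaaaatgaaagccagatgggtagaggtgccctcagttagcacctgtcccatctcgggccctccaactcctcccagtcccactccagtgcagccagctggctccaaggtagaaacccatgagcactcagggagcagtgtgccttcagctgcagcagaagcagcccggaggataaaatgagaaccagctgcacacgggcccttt
ABCC4, chr13:95301452-95301701, minus strand: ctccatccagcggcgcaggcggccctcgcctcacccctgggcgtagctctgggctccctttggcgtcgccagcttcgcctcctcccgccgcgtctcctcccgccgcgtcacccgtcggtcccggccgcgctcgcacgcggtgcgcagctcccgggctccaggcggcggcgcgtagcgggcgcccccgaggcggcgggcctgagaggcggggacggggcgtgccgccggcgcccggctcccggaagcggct
ABCC5, chr3:184017885-184018134, minus strand: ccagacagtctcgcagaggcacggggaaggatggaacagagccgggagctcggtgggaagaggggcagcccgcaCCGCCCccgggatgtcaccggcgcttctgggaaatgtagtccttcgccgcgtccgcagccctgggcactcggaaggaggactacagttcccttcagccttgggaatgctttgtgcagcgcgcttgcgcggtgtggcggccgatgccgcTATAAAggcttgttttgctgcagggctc

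In the ABCB1 window, a CCAAT box begins at position -238 relative to the start site. An AP-1 motif begins at -234 and shares 1 base with that box, and an inverted CCAAT box begins at -79. The MVP window holds an inverted CCAAT box at -206, and the ABCC5 window holds an inverted GC box at -176 and a TATA box at -28. None of these motifs was found in the ABCC4 window, of which 80.4% is G or C, against a median of 58% over all windows. Across 34943 RefSeq windows of this length, 32.0% held the CCAAT box, 42.5% the GC box, 10.8% the TATA box and 6.59% the AP-1 motif. RefSeq also lists another start of ABCB1 and further starts of MVP, whose windows held no match. Which start these lines use was not measured.

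The members differed in level before any drug was added. Per kilobase of exon and averaged over the 6 lines, ABCC1 was the most abundant in DMSO with 18.5 CPM per kb, followed by ABCC4 with 6.25, ABCC5 with 5.10 and ABCC10 with 4.36 CPM per kb. MVP had 2.30 and ABCB1 0.303 CPM per kb. ABCB1 RNA was therefore scarce in most untreated lines, whereas ABCC1 RNA was present in every library.

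The lines also differed among themselves for each member (edgeR quasi-likelihood F-test over the 16 DMSO libraries with Benjamini-Hochberg adjustment, F from 22.9 for MVP to 204 for ABCC5, adjusted p at most 7.44e-07). This background was broad, since 88.8% of 16256 genes tested differed between the lines by the same rule. The following levels are means ± SD over the 3 DMSO libraries of a line, or the value of the 1 library of SUDHL6.

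ABCB1 (chr7:87503633-87713323, minus strand, GENCODE 29 on GRCh38) stood at 6.02 ± 1.89 CPM in OCILY1 and 4.23 ± 0.530 CPM in TOLEDO, which did not differ beyond their spread (adjusted p = 0.212, edgeR). SUDHL6 followed with 0.221 CPM, below TOLEDO (adjusted p = 0.00101, edgeR, with the spread of its 1 library assumed to be that of the other lines), and SUDHL4 had 1 count in all 3 DMSO libraries together. PFEIFFER and WSUDLCL2 had 0 counts in every DMSO library, which allows up to 0.347 to 0.436 CPM depending on the library, for counting error only. ABCB1 was thus measurable above this limit at baseline in OCILY1 and TOLEDO.

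ABCC1 (chr16:15949577-16143074, plus strand), a broad exporter of glutathione and its conjugates, was highest in PFEIFFER with 266 ± 24.3 CPM, above OCILY1 with 134 ± 30.0 CPM (adjusted p = 6.35e-07, edgeR). The other lines lay between 81.9 CPM in SUDHL6 and 133 ± 9.85 CPM in SUDHL4, and no 2 neighbours in this lower order differed by the test. ABCC4 (chr13:95019829-95301475, minus strand), which exports cyclic nucleotides and nucleotide analogues, ran from 24.6 ± 3.30 CPM in TOLEDO to 105 ± 18.1 CPM in PFEIFFER. No pair of neighbouring lines differed for ABCC4 by the test, although 9 of 15 line pairs did. Between 26.5% and 62.1% of all genes tested were called per pair.

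ABCC5 (chr3:183919934-184018015, minus strand), another exporter of cyclic nucleotides, was at 0 in 1 line. OCILY1 had 112 ± 1.29 CPM, SUDHL6 96.9 CPM, SUDHL4 73.9 ± 19.1 CPM, PFEIFFER 42.8 ± 6.77 CPM and TOLEDO 23.7 ± 1.56 CPM, while WSUDLCL2 had 0 counts in its 3 DMSO libraries. Of the 15 line pairs, 13 differed for ABCC5, the largest number among the members, beside 26.5% to 62.1% of all genes per pair. Every pair with WSUDLCL2, the line at 0, was among them. The steps from SUDHL4 to PFEIFFER and from PFEIFFER to TOLEDO each passed the test, and those among the 3 highest lines did not.

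ABCC10 (chr6:43427366-43450430, plus strand), a pump known for taxanes and vinca alkaloids, had 93.1 CPM in SUDHL6, above SUDHL4 with 37.1 ± 11.6 CPM (adjusted p = 0.000203, edgeR, under the same assumption for the 1 library), and 16.2 to 28.0 CPM on average in the other 4 lines. MVP (chr16:29820394-29848039, plus strand) ran from 3.73 ± 1.12 CPM in TOLEDO and 5.70 ± 1.55 CPM in OCILY1 to 26.9 ± 0.640 CPM in PFEIFFER. The lines with the most ABCB1, OCILY1 and TOLEDO, were those with the least MVP. At 14 d, 0 of 6 members differed between DMSOP and DMSOV by edgeR, by DESeq2 or at an unadjusted p under 0.05, as did 0% of all genes by edgeR.

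**Figure D1:**
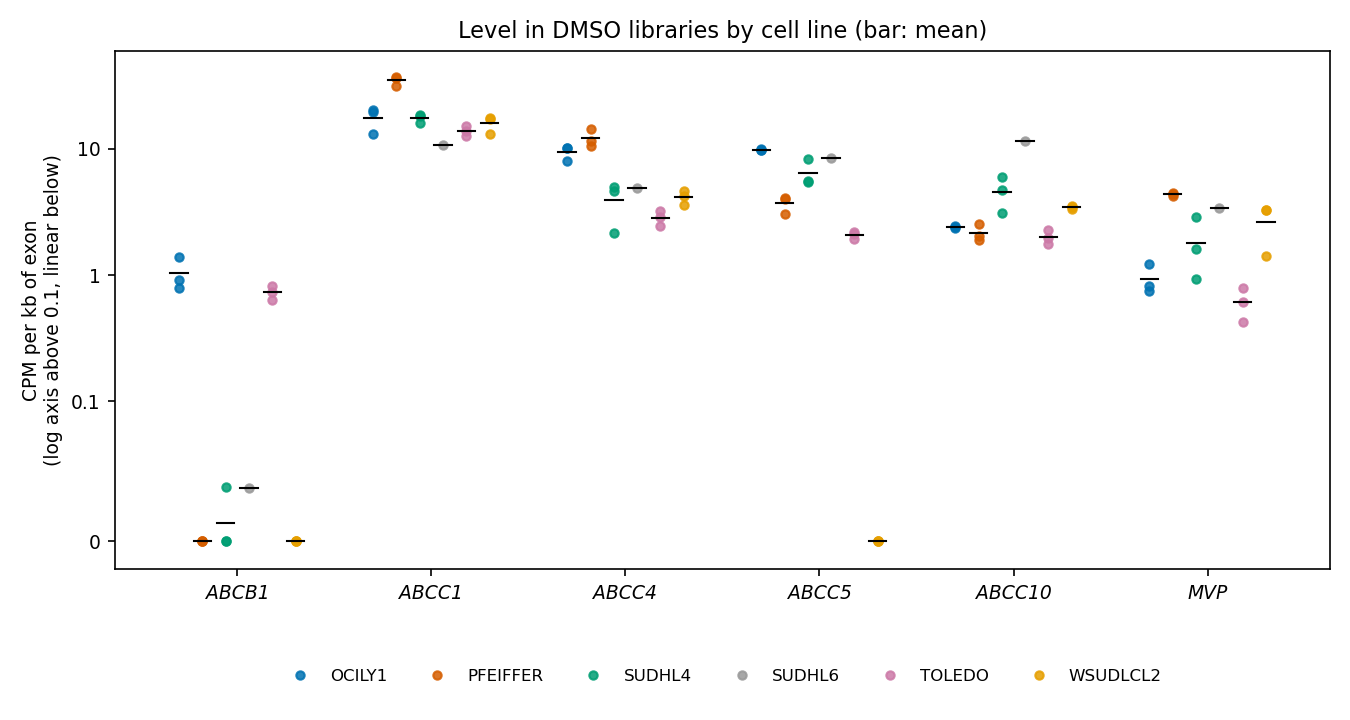
Level of each gene in the DMSO libraries, in CPM per kb of exon on an axis that is logarithmic above 0.1 and linear below; points are libraries, coloured by line, and black bars are the means of a line. ABCC1 has the highest mean, 18.5 CPM per kb over the lines, and ABCB1 and ABCC5 each have lines at 0.

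At 6 h, ABCB1 RNA rose and ABCC4 RNA fell with either drug, and MVP RNA rose with vorinostat. By 14 d, all 6 measured members had changed with either drug, ABCB1, ABCC5, ABCC10 and MVP upward and ABCC1 and ABCC4 downward. These calls are at an adjusted p under 0.05 over all genes, from edgeR's quasi-likelihood test with the line as block. At 6 h, 2 of 6 members were called with pracinostat, beside 40.1% of all genes tested (21.2% higher and 18.9% lower). With vorinostat 3 of 6 were called, beside 43.9% (23.1% higher and 20.9% lower). At 14 d, 6 of 6 were called with pracinostat, beside 22.6% of all genes (12.3% higher and 10.2% lower), and 6 of 6 with vorinostat, beside 37.6% (20.4% higher and 17.2% lower). The median log2 fold change of the members at 14 d was 0.69 with pracinostat and 0.63 with vorinostat, beside 0.07 and 0.12 over all genes tested.

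**Figure D2:**
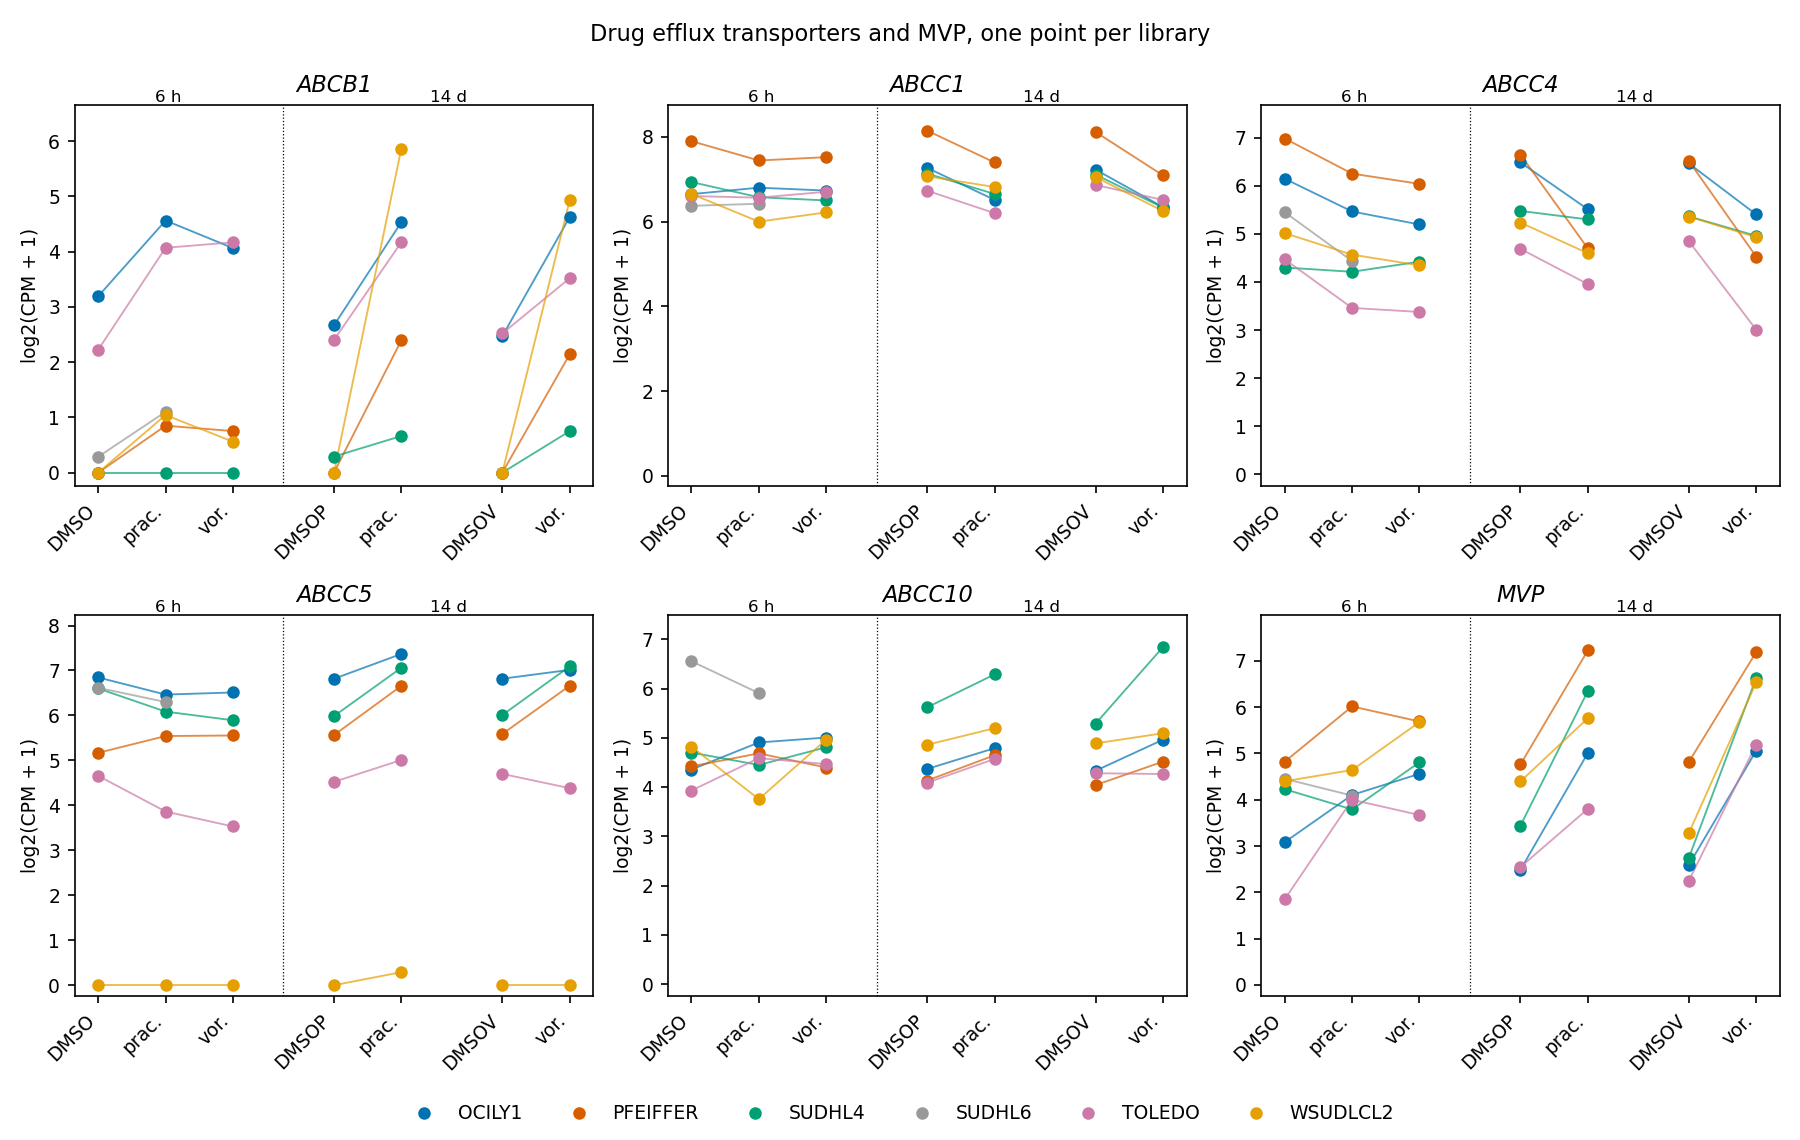
Level of each gene in each library as log2(CPM + 1), with 6 h groups left and 14 d groups right of the dotted line; points are libraries coloured by line, and lines join the libraries of a cell line that are compared. MVP at 14 d is at least 32.3 CPM in every vorinostat library and at most 27.2 CPM in every DMSOV library, while ABCB1 in WSUDLCL2 goes from 0 to 57.3 and 29.5 CPM.

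ABCB1 had the largest fitted rise of the members with pracinostat. At 6 h its level ranged from 0 to 8.15 CPM in DMSO (median 0.111) and from 0 to 22.7 CPM with pracinostat (median 1.10). With vorinostat at 6 h it was 15.7 CPM in OCILY1, 17.0 in TOLEDO, 0.685 in PFEIFFER, 0.475 in WSUDLCL2 and 0 in SUDHL4. High values with either drug were those of the lines that already expressed it, and the groups overlapped.

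The 6 h change of ABCB1 was 2.00 on the log2 scale with pracinostat (SE 0.38, adjusted p = 0.000953, edgeR, higher in all 5 lines with more than 3 counts in either library). With vorinostat it was 1.70 (SE 0.39, adjusted p = 0.00315, edgeR, higher in all 3 lines with more than 3 counts in either library). In TOLEDO 24 counts in DMSO became 98 with pracinostat, 4.30-fold with an exact 95% interval of 2.73 to 7.02 that covers counting error only, and 116 with vorinostat, 4.62-fold (2.96 to 7.51). In OCILY1 61 counts became 154, 2.78-fold (2.06 to 3.81), and 92, 1.93-fold (1.38 to 2.72). Without OCILY1, without TOLEDO, and in the fits of only the groups compared, the gene did not pass the low-count filter at 6 h and was not tested, so the 6 h result rests on these lines.

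At 14 d the ABCB1 level in DMSOP was 5.35 CPM in OCILY1, 4.29 in TOLEDO, 0.224 in SUDHL4 and 0 in PFEIFFER and WSUDLCL2. With pracinostat it was 57.3 CPM in WSUDLCL2, 22.2 in OCILY1, 17.0 in TOLEDO, 4.26 in PFEIFFER and 0.583 in SUDHL4. WSUDLCL2, where the gene was not detected in DMSO, thus became the line with the highest level. DMSOV libraries had 4.55 CPM in OCILY1, 4.73 in TOLEDO and 0 in the other 3 lines, and vorinostat libraries had 29.5 CPM in WSUDLCL2, 23.7 in OCILY1, 10.5 in TOLEDO, 3.41 in PFEIFFER and 0.683 in SUDHL4. The order of the lines was the same with both drugs.

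In counts, WSUDLCL2 went from 0 in DMSOP to 257 with pracinostat and from 0 in DMSOV to 96 with vorinostat. Set against the limit of 3 counts in the control library, these are at least 165-fold and at least 67.6-fold higher, and the exact 95% lower limits of the fold are 133 and 53.9. PFEIFFER went from 0 to 34 and from 0 to 24 counts, at least 11.6-fold and at least 8.16-fold higher, with exact lower limits of 8.91 and 6.14. In OCILY1 the rise was 4.14-fold with pracinostat (2.96 to 5.92) and 5.21-fold with vorinostat (3.48 to 8.06), and in TOLEDO 3.97-fold (2.64 to 6.12) and 2.21-fold (1.39 to 3.58). SUDHL4 stayed between 0 and 4 counts throughout, so no difference was detectable there at this depth.

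The fitted ABCB1 change at 14 d was 3.62 with pracinostat (SE 0.94, adjusted p = 0.0139, edgeR) and 3.17 with vorinostat (SE 0.95, adjusted p = 0.0161, edgeR); both include lines at 0 in DMSO and so depend on the model's handling of zeros. Without PFEIFFER these calls were lost, at 3.37 (adjusted p = 0.0612) and 2.88 (adjusted p = 0.0559), and in fits of only the groups compared the adjusted p was 0.0682 and 0.0516 (edgeR). The response differed between lines (F = 28.3, adjusted p = 3.85e-05, edgeR F-test of line by treatment with both drugs as treated), a test that 19.5% of all genes passed. Within single lines, with DMSOP and DMSOV against both drugs, ABCB1 was called in OCILY1, PFEIFFER, TOLEDO and WSUDLCL2 and not in SUDHL4 (adjusted p = 0.171, edgeR). The share of all genes called in these fits was 21.6% in OCILY1, 31.1% in PFEIFFER, 28.7% in SUDHL4, 24.4% in TOLEDO and 21.3% in WSUDLCL2.

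Neighbours and look-alikes of ABCB1 were read beside it. ABCB4, its closest paralogue and a phosphatidylcholine transporter of liver cells, shares 2.02% of the 50-base words of ABCB1 transcripts. ABCB4 was not called in any of the 4 drug comparisons, although in SUDHL4 its counts went from 11 in DMSOP to 340 with pracinostat while ABCB1 went from 1 to 4. In WSUDLCL2 at 14 d, ABCB4 counts also went from 4 to 80 with pracinostat and from 5 to 54 with vorinostat. In PFEIFFER they went from 10 to 32 and from 5 to 18. OCILY1 went from 129 to 150 and from 118 to 139, and TOLEDO from 81 to 80 and from 86 to 46. RUNDC3B overlaps the ABCB1 span on the opposite strand with no shared exon bases. It rose at 6 h by 2.19 on the log2 scale with pracinostat and 1.99 with vorinostat and was not called at 14 d, and in WSUDLCL2 at 14 d it had 0 counts with pracinostat and 2 with vorinostat beside the 257 and 96 of ABCB1. No source used here says whether the counting used strand.

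ABCC1 and ABCC4 moved down. ABCC1 was not called at 6 h, with log2 changes of -0.24 for pracinostat (adjusted p = 0.104) and -0.22 for vorinostat (adjusted p = 0.148, edgeR). At 14 d its DMSOP level was 283 CPM in PFEIFFER, 153 in OCILY1, 139 in SUDHL4, 133 in WSUDLCL2 and 105 in TOLEDO, and with pracinostat it was 168, 90.4, 99.6, 112 and 72.5 CPM in the same lines. In DMSOV the same lines had 276, 149, 137, 132 and 116 CPM, and with vorinostat 136, 80.2, 79.6, 75.2 and 90.3 CPM. Every line was lower with drug than in its own DMSO library, although the groups overlapped, PFEIFFER being highest in each.

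The 14 d change of ABCC1 was -0.53 with pracinostat (SE 0.13, adjusted p = 0.00998, edgeR, lower in 5 of 5 lines) and -0.72 with vorinostat (SE 0.13, adjusted p = 0.000702, edgeR, lower in 5 of 5). The pracinostat call was lost without OCILY1 (adjusted p = 0.0689) and without PFEIFFER (adjusted p = 0.0609, edgeR). The vorinostat effect was larger in size at 14 d than at 6 h by 0.53 (interaction -0.53, SE 0.17, adjusted p = 0.0259, edgeR), in a test that 23.4% of 15420 genes passed (11.2% upward and 12.2% downward). That interaction call was lost when OCILY1, PFEIFFER or SUDHL4 was left out (adjusted p 0.0623 to 0.151) and in the fit of only the groups compared (adjusted p = 0.101). For pracinostat the interaction of ABCC1 was -0.31 (adjusted p = 0.193) and was called only with library totals in place of TMM (adjusted p = 0.0411, edgeR). A difference in the ABCC1 response between lines was not called (F = 1.20, adjusted p = 0.499, edgeR).

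ABCC4 fell at both times. At 6 h it ranged from 18.7 to 125 CPM in DMSO (median 37.0) and from 10.0 to 75.1 CPM with pracinostat (median 21.7). With vorinostat it was 64.7 CPM in PFEIFFER, 35.6 in OCILY1, 20.4 in SUDHL4, 19.3 in WSUDLCL2 and 9.38 in TOLEDO. The change was -0.73 with pracinostat (SE 0.14, adjusted p = 0.000785, edgeR, lower in 6 of 6 lines) and -0.82 with vorinostat (SE 0.15, adjusted p = 0.000481, edgeR, lower in 4 of 5). SUDHL4 stood apart, with 0.94-fold of its DMSO level with pracinostat (0.67 to 1.31) and 1.09-fold with vorinostat (0.80 to 1.51), so no change was detectable there.

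At 14 d the ABCC4 level in DMSOP was 99.1 CPM in PFEIFFER, 88.5 in OCILY1, 43.5 in SUDHL4, 36.6 in WSUDLCL2 and 24.8 in TOLEDO, and with pracinostat it was 24.9, 44.6, 38.4, 23.2 and 14.5 CPM. In DMSOV it was 90.3, 87.1, 40.1, 39.9 and 27.8 CPM in the same order, and with vorinostat 22.0, 41.3, 30.1, 29.5 and 7.04 CPM. PFEIFFER, the line with the most ABCC4 in DMSO, thus dropped below OCILY1 and SUDHL4 with either drug. The fall was -0.90 with pracinostat (SE 0.26, adjusted p = 0.0212, edgeR) and -1.12 with vorinostat (SE 0.26, adjusted p = 0.00388, edgeR), with 5 of 5 lines lower each time.

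For pracinostat this ABCC4 call at 14 d was lost without OCILY1 (adjusted p = 0.0942), without PFEIFFER (adjusted p = 0.0967) and in the fit of only the groups compared (adjusted p = 0.0599, edgeR). The response differed between lines (F = 10.1, adjusted p = 0.00296, edgeR), from -1.998 in PFEIFFER (SE 0.22) to -0.17 in SUDHL4 (SE 0.22), with calls in OCILY1, PFEIFFER and TOLEDO. This difference between lines was no longer called without PFEIFFER (adjusted p = 0.153, edgeR).

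**Figure D3:**
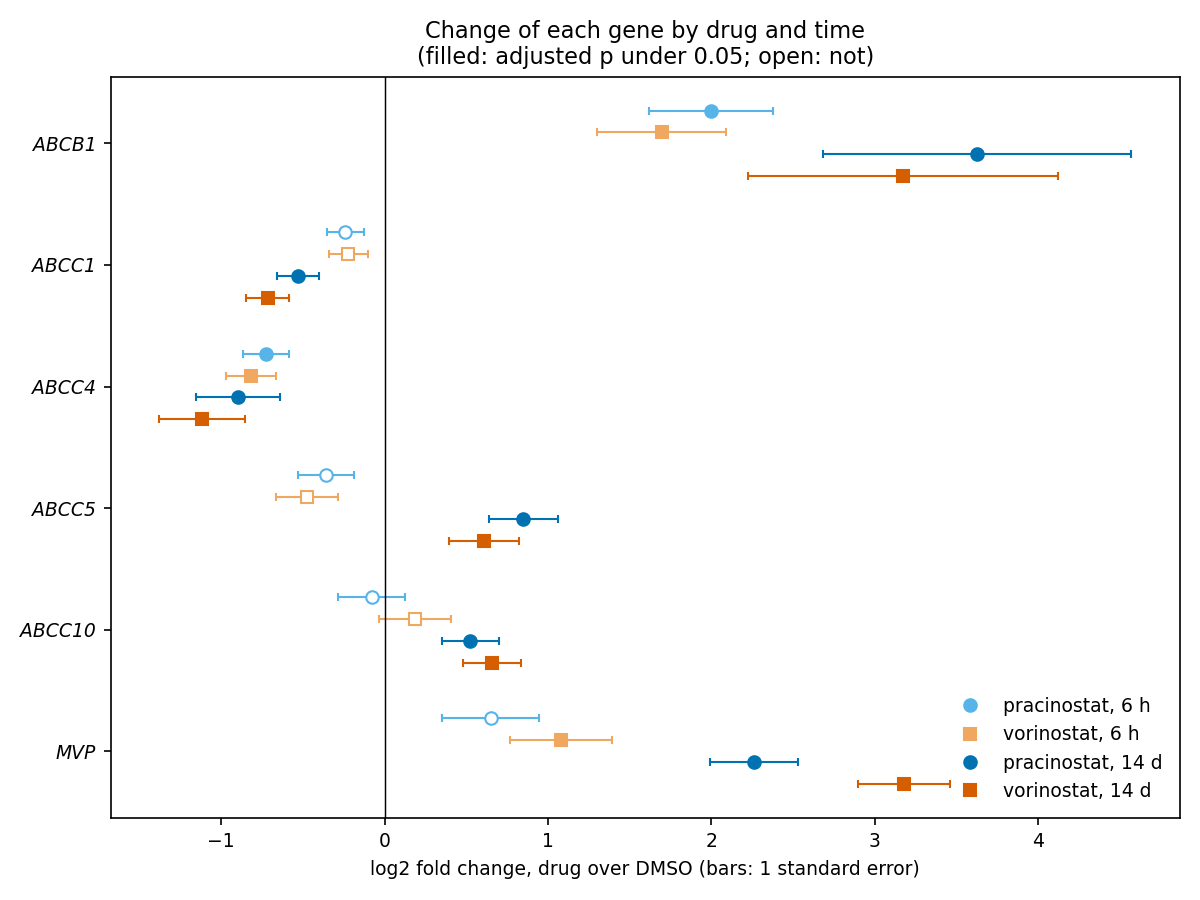
Log2 fold change of each gene, drug over DMSO, from the edgeR fits; bars are 1 standard error, filled symbols have an adjusted p under 0.05 and open symbols do not. ABCC1 and ABCC4 lie left of 0 in the 4 comparisons, ABCB1 and MVP lie right of 0, and ABCC5 changes side between 6 h and 14 d.

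ABCC5 rose at 14 d and was not called at 6 h. At 6 h its log2 change was -0.36 with pracinostat (adjusted p = 0.109) and -0.48 with vorinostat (adjusted p = 0.0543, edgeR). PFEIFFER was the exception at that time, with 1.30-fold of its DMSO level with pracinostat (1.10 to 1.55) and 1.31-fold with vorinostat (1.12 to 1.54). Left out, it gave called falls of -0.51 (adjusted p = 0.0174) and -0.69 (adjusted p = 0.00601, edgeR).

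In DMSOP at 14 d, ABCC5 stood at 112 CPM in OCILY1, 62.3 in SUDHL4, 46.2 in PFEIFFER, 22.0 in TOLEDO and 0 in WSUDLCL2, and with pracinostat at 164, 132, 99.98, 31.2 and 0.223 CPM. DMSOV libraries had 112, 63.4, 47.1, 25.0 and 0 CPM in the same order, and vorinostat libraries 128, 135, 100.1, 19.9 and 0 CPM. In WSUDLCL2, 1 count was seen over all its libraries, so the gene was at or under the detection limit there under every condition. SUDHL4 and PFEIFFER showed the largest rises.

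The 14 d change of ABCC5 was 0.85 with pracinostat (SE 0.21, adjusted p = 0.0108, edgeR, higher in the 4 lines that could be compared) and 0.61 with vorinostat (SE 0.21, adjusted p = 0.0338, edgeR, higher in 3 of 4). Without SUDHL4 the calls were lost (adjusted p = 0.0608 and 0.271), as they were without PFEIFFER (adjusted p = 0.0665 and 0.206), and the vorinostat call was lost without WSUDLCL2 (adjusted p = 0.0508), with library totals in place of TMM (adjusted p = 0.0908) and in the fit of only the groups compared (adjusted p = 0.150, edgeR). Within single lines it was called in PFEIFFER (1.11, SE 0.19) and SUDHL4 (1.201, SE 0.20), and the response differed between lines (F = 5.76, adjusted p = 0.0273, edgeR). That difference between lines was called in 1 of the 5 fits that left a line out, with an adjusted p of up to 0.108, and was lost with library totals (adjusted p = 0.0678, edgeR).

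The effect on ABCC5 differed between the times. The interaction was 1.19 with pracinostat (SE 0.28, adjusted p = 0.00476, edgeR) and 1.06 with vorinostat (SE 0.30, adjusted p = 0.0121, edgeR). The pracinostat test called 19.4% of all genes, 9.53% upward and 9.83% downward. The pracinostat interaction was called in each fit that left a line out, and the vorinostat interaction was lost without SUDHL4 (adjusted p = 0.137) and with only the groups compared (adjusted p = 0.105, edgeR).

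ABCC10 rose at 14 d with either drug, by less than ABCB1 or MVP in the fits. In DMSOP it was at 19.7 CPM in OCILY1, 16.6 in PFEIFFER, 48.2 in SUDHL4, 16.0 in TOLEDO and 28.0 in WSUDLCL2, and with pracinostat at 26.7, 24.1, 77.1, 22.8 and 35.7 CPM. DMSOV libraries had 19.1, 15.5, 38.1, 18.4 and 28.6 CPM in the same order, and vorinostat libraries 30.2, 21.9, 114, 18.2 and 33.2 CPM. SUDHL4 was highest in each 14 d group, and its vorinostat library stood furthest from its DMSO, 2.99-fold (2.47 to 3.62).

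The ABCC10 change at 14 d was 0.53 with pracinostat (SE 0.18, adjusted p = 0.0420, edgeR, higher in 5 of 5 lines) and 0.66 with vorinostat (SE 0.18, adjusted p = 0.00949, edgeR, higher in 4 of 5). The pracinostat call was lost whichever line was left out (adjusted p 0.0519 to 0.124) and with library totals in place of TMM (adjusted p = 0.0640), and the vorinostat call was lost without SUDHL4 (0.35, adjusted p = 0.0885) and with only the groups compared (adjusted p = 0.0899, edgeR). At 6 h the change was -0.08 with pracinostat and 0.19 with vorinostat, neither called. DLK2 overlaps 79 bases of ABCC10 exons on the opposite strand, 0.977% of its exon length, and rose by 1.08 with vorinostat at 14 d.

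MVP had the smallest adjusted p of the members at 14 d with both drugs. At 6 h it ranged from 2.61 to 27.3 CPM in DMSO (median 18.9) and from 12.8 to 63.7 CPM with pracinostat (median 16.1). With vorinostat it was 50.7 CPM in PFEIFFER, 50.2 in WSUDLCL2, 27.0 in SUDHL4, 22.6 in OCILY1 and 11.7 in TOLEDO. The change was 1.08 with vorinostat (SE 0.31, adjusted p = 0.0113, edgeR, higher in 5 of 5 lines) and 0.65 with pracinostat (SE 0.29, adjusted p = 0.0934, edgeR, higher in 4 of 6).

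These 6 h values of MVP lay close to the threshold. Without OCILY1 the vorinostat call was lost (adjusted p = 0.0505), and the pracinostat change was called by DESeq2 (adjusted p = 0.0474), without SUDHL4 (adjusted p = 0.0473) and without SUDHL6 (adjusted p = 0.0377, edgeR). SUDHL4 and SUDHL6 had the lower values with pracinostat, 0.72-fold (0.51 to 1.04) and 0.77-fold (0.59 to 0.98) of DMSO, whereas TOLEDO reached 5.76-fold (3.41 to 10.3).

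At 14 d MVP in DMSOP was 26.1 CPM in PFEIFFER, 20.0 in WSUDLCL2, 9.86 in SUDHL4, 4.84 in TOLEDO and 4.60 in OCILY1, and with pracinostat 149, 53.3, 80.4, 12.9 and 31.2 CPM. In DMSOV it was 27.2, 8.71, 5.70, 3.75 and 5.02 CPM in the same order, and with vorinostat 145, 91.8, 98.0, 35.6 and 32.3 CPM. Each drug library was above its own DMSO library. The vorinostat and DMSOV groups did not overlap, whereas drug and DMSO groups overlapped in every other comparison of a member, MVP with pracinostat included. The share of all genes whose groups did not overlap was not computed, so how unusual this is cannot be told.

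The rise of MVP at 14 d was 2.26 with pracinostat (SE 0.27, adjusted p = 0.000243, edgeR) and 3.18 with vorinostat (SE 0.28, adjusted p = 1.81e-05, edgeR), in 5 of 5 lines each. Within lines the vorinostat rise ran from 5.33-fold in PFEIFFER (4.57 to 6.25) to 17.2-fold in SUDHL4 (11.4 to 27.0), and the pracinostat rise from 2.66-fold in WSUDLCL2 (2.18 to 3.25) to 8.15-fold in SUDHL4 (5.99 to 11.3). With both drugs pooled MVP was called in each of the 5 lines, from 2.32 in WSUDLCL2 (SE 0.40) to 3.62 in SUDHL4 (SE 0.44). A difference in the MVP response between lines was not called (F = 1.49, adjusted p = 0.407, edgeR), in a test where differences between the drugs count as spread. The calls at 14 d held in each fit that left a line out, with an adjusted p of at most 0.00388 with pracinostat and 0.000543 with vorinostat.

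The MVP effect grew between the times. The interaction was 1.59 with pracinostat (SE 0.42, adjusted p = 0.00896, edgeR) and 2.06 with vorinostat (SE 0.44, adjusted p = 0.00132, edgeR). The pracinostat call was lost without SUDHL4 (1.17, adjusted p = 0.0842, edgeR) and held with any other line left out. SUDHL6 entered the pracinostat effect at 6 h only, and without it that 6 h effect was 0.87. The other vault proteins were not called higher with either drug. PARP4, the vault poly(ADP-ribose) polymerase, fell by 0.54 at 6 h and by 0.80 at 14 d with vorinostat and was not called with pracinostat (-0.27 and -0.21), and TEP1, the RNA-binding vault protein shared with telomerase, was not called in any of these comparisons (-0.10 to 0.25). MVP-DT, transcribed away from MVP on the opposite strand, was not called either (-0.48 to 0.22). Another gene of GENCODE 29, not analysed here, overlaps 154 exon bases of MVP, 2.51% of its exon length.

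**Figure D4:**
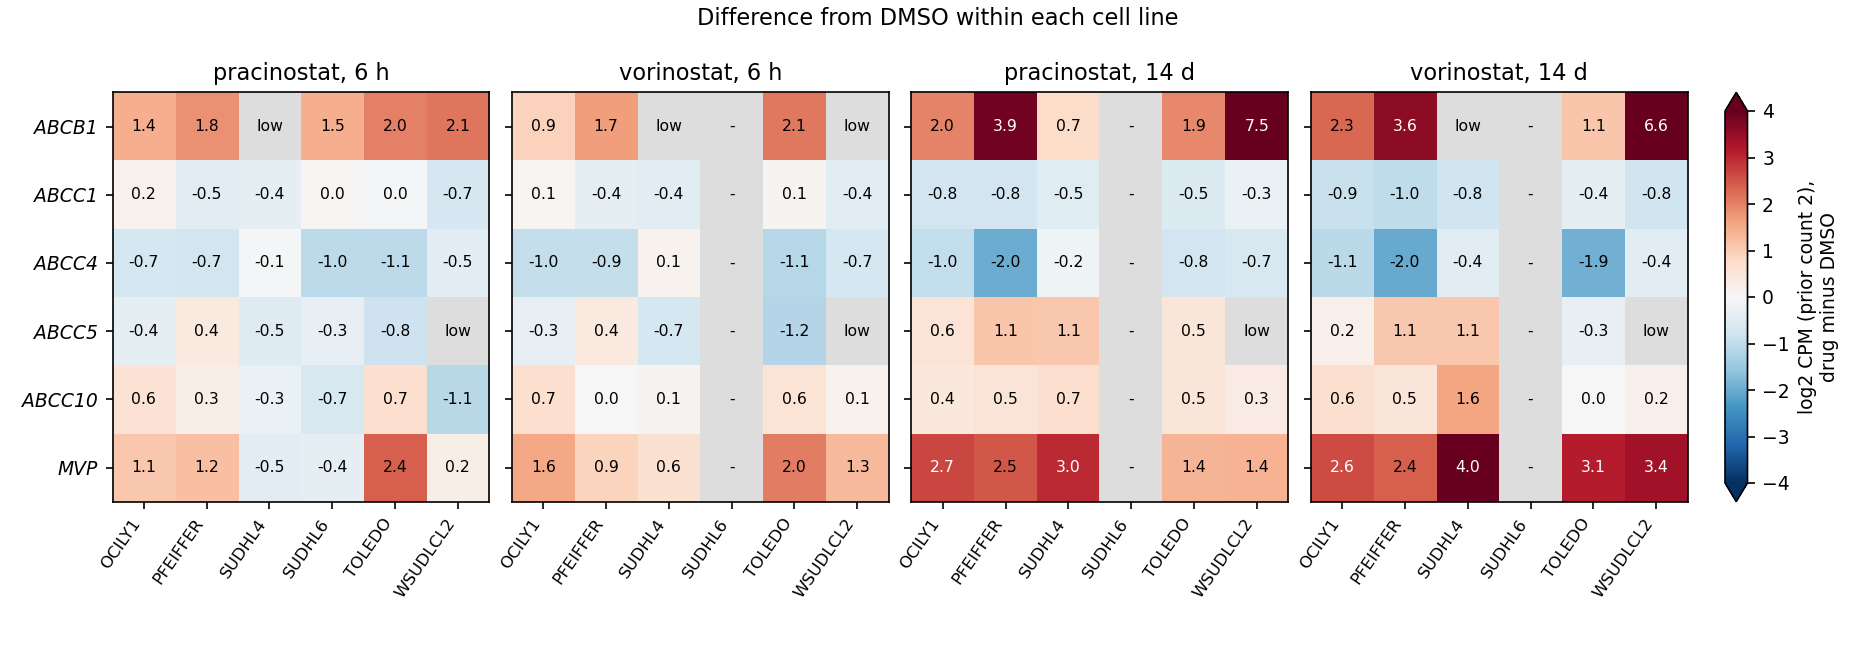
Difference in log2 CPM (prior count 2) between drug and DMSO within each line; red is higher and blue is lower with drug, "low" marks pairs with at most 3 counts in both libraries and "-" marks lines with no library. MVP is higher in all 5 lines at 14 d, and ABCB1 ranges from 0.74 in SUDHL4 to 7.53 in WSUDLCL2 with pracinostat, where the control library is at 0 and the value depends on the prior count.

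Pracinostat and vorinostat were also set against each other at each time, at doses that are not known to match. At 6 h 0 of 6 members differed by edgeR, by an unadjusted p under 0.05 or by DESeq2, and 0.0152% of all genes did by edgeR, 0.00759% in each direction. At 14 d, comparing the change from each drug's own DMSO, 0 of 6 members and 0% of all genes differed by edgeR or DESeq2, and 1 member had an unadjusted p under 0.05. That member was MVP, whose rise was 0.92 smaller on the log2 scale with pracinostat (difference -0.92, SE 0.37, 95% interval -1.65 to -0.18, adjusted p = 0.9995 by edgeR). The controls enter this difference. MVP was 0.43 higher in DMSOP than in DMSOV (SE 0.28, not called), with 3 of 5 lines higher and 2 lower. In WSUDLCL2 it was 2.30-fold higher in DMSOP (1.70 to 3.14). Over the alternatives the difference between the drugs ran from -1.22 to -0.48. The 14 d intervals for ABCC1 (-0.18 to 0.55), ABCC4 (-0.49 to 0.93), ABCC5 (-0.35 to 0.82) and ABCC10 (-0.62 to 0.36) include 0 and also differences of some size. For ABCB1 the interval of -1.98 to 2.88 is too wide to compare the drugs.

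Other genes of the pathway were counted from lists drawn up for drug transport. Among 12 further multidrug ABC transporters, 8 were measured, of which 7 were tested at 6 h and 5 at 14 d, and 2 rose and 0 fell in each of the 4 comparisons. Of all genes, 21.2% and 23.1% rose at 6 h and 12.3% and 20.4% at 14 d with pracinostat and vorinostat. Both were the same genes, ABCA2, an endolysosomal lipid transporter (1.47 and 1.29 at 6 h, 1.92 and 1.48 at 14 d with pracinostat and vorinostat), and ABCA3, a phospholipid transporter of lamellar bodies (1.73 and 1.71, then 1.71 and 1.69). Of 18 ABC genes with lipid, peptide, haem or ribosome roles, 16 were tested at 6 h and 17 at 14 d. Among these, pracinostat raised 5 and lowered 1 at 6 h and vorinostat raised 7 and lowered 2, while at 14 d the counts were 2 and 2 with pracinostat and 3 and 4 with vorinostat. Beside the shares of all genes that rose, 18.9% and 20.9% fell at 6 h and 10.2% and 17.2% at 14 d. The cholesterol exporter ABCG1 rose by 1.67 and 2.11 at 6 h and was at 0.20 and 0.04 at 14 d, not called, and ABCA5 rose in the 4 comparisons, by 2.13 and 2.34 at 14 d. ABCE1, a ribosome recycling factor, fell in the 4 comparisons, by 0.54 to 0.82.

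Solute carriers and metal pumps moved in both directions at 6 h. Of 12 in the table, 11 were tested, and at 6 h pracinostat raised 4 and lowered 3 and vorinostat raised 3 and lowered 3, against 1 and 0, then 1 and 1, at 14 d. Of all genes, 40.1% and 43.9% were called at 6 h and 22.6% and 37.6% at 14 d. The copper pump ATP7B, known for cisplatin, rose by 3.23 and 3.39 at 6 h and by 1.53 and 1.61 at 14 d. The copper importer SLC31A1 rose by 1.06 and 1.61 at 6 h, and the reduced folate carrier SLC19A1, which takes up methotrexate, fell by 1.25 and 1.21.

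Glutathione genes, which supply substrates of ABCC1, moved in both directions. Of 15 tested, pracinostat raised 3 and lowered 2 and vorinostat raised 3 and lowered 4 at 6 h, and the counts were 3 and 3, then 4 and 5, at 14 d. Among all genes, 40.1% and 43.9% were called at 6 h and 22.6% and 37.6% at 14 d. The list's median at 14 d was -0.11 with pracinostat and -0.03 with vorinostat, beside 0.07 and 0.12 over all genes. The transferases GSTA4 (1.30 to 2.04) and MGST3 (1.46 to 1.98) rose in the 4 comparisons. Glutathione synthetase GSS fell at 14 d by 0.93 and 0.87, and GCLM, the modifier subunit of the first enzyme of glutathione synthesis, fell by 0.68 and 0.54.

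Among 4 membrane anchors of ABC pumps, pracinostat raised 2 and lowered 1 at 6 h, vorinostat raised 1, and 0 were called at 14 d with either drug. NHERF1 rose at 6 h by 0.52 and 0.74. Of 21 transcription regulators linked to ABCB1, 20 were tested at 6 h, where pracinostat raised 4 and lowered 7 and vorinostat raised 5 and lowered 7. All 21 were tested at 14 d, where the counts were 1 and 4, then 3 and 7. Beside these lists, 40.1% and 43.9% of all genes were called at 6 h with pracinostat and vorinostat. At 14 d the shares were 22.6% and 37.6%. The aryl hydrocarbon receptor AHR rose in the 4 comparisons (1.13 to 1.55), and SP1, which binds GC boxes, fell in each, by 0.54 and 0.97 at 14 d. YBX1, known to bind inverted CCAAT motifs, fell at 14 d by 0.80 and 0.69. Whether it binds the ABCB1 window in these lines was not measured.

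Genes with the most similar pattern were named by the correlation of log2 CPM, centred within line and time, over 37 libraries among 10636 genes with a mean of at least 5 CPM; the libraries share lines and treatments. They were PAM, AASS and CDYL2 for ABCB1 (r from 0.907 to 0.914), INSIG1 and GPI for ABCC1 (0.906 and 0.871), and GANAB, RESF1 and CANX for ABCC4 (0.899 to 0.924). For ABCC5 they were NCKAP1L, PLEKHG1 and LHPP (0.781 to 0.842), for ABCC10 TMEM175, MAN2B1 and SNED1 (0.841 to 0.890), and for MVP ABAT, DBNL and NCKAP5L (0.929 to 0.933). Between members, MVP had r of 0.74 with ABCC10, 0.72 with ABCB1, -0.77 with ABCC4 and -0.78 with ABCC1.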

How the data were processed

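Raw counts per gene were deposited by the authors. STAR, edgeR and hg38 are named in the submitters' processing notes, which give no versions; annotation and strand setting are not stated. Per the labels' protocols, libraries were made with a TruSeq RNA kit from 1 µg of Trizol-extracted RNA. A table of log2 values, deposited by the authors, served only to check the columns, and 37 of 37 matched by label.

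The counts entered edgeR's quasi-likelihood test (version 4.0.16, R 4.3.3; TMM scaling, filterByExpr with a minimum count of 10, robust fit, Benjamini-Hochberg adjustment over all genes tested), each time fitted apart. The cell line was a block, since samples of different treatments come from the same line by label; time effects used a block of line and time. Intervals of fitted differences are 1.96 SE either side. Intervals within a line are exact and, like the floor of 3 counts (0.332 to 1.02 CPM by library), cover counting error only. Per-line log2 differences used a prior count of 2. Code was tested on simulated data. DESeq2 1.42.0, other scalings, no filter, no block, each line left out and fits of fewer groups were alternatives.

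All members are named, with genes overlapping them, the 3 most alike per member, and up to 2 rises and 2 falls per list and comparison. Members and lists were chosen with earlier results of these data known. Protein sequences were not used here. Some genes these rules name are not reported here.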

Additional observations from a re-analysis of the deposited data

Results flagged for a closer look

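The effect of a drug differed between 14 d and 6 h for 3 members by a test of the difference itself (edgeR interaction with Benjamini-Hochberg adjustment). For ABCC5 the difference was 1.19 on the log2 scale with pracinostat and 1.06 with vorinostat. For MVP it was 1.59 with pracinostat and 2.06 with vorinostat. For ABCC1 it was -0.53 with vorinostat. The same tests called 19.4% of all genes with pracinostat and 23.4% with vorinostat. Leaving out 1 line lost the ABCC1 call in some fits. The same held for MVP with pracinostat and for ABCC5 with vorinostat.

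The response at 14 d, both drugs against both DMSO sets, differed between the 5 lines for 3 members by an F-test of line by treatment. F was 28.3 for ABCB1, 10.1 for ABCC4 and 5.76 for ABCC5. By this test 19.5% of all genes differed. ABCB1 was called in each fit that left a line out. ABCC4 was no longer called without PFEIFFER, and ABCC5 was called in 1 of the 5 such fits. The per-line differences between drug and DMSO were also tested for a single distant line. None was marked in the 23 groups tested, where chance alone would mark about 5% of groups. With so few lines per group the test marks only extreme gaps. ABCB1 in WSUDLCL2 with pracinostat at 14 d, at 7.53 beside 0.74 to 3.87 in the other lines, was not marked.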

How the results depend on the processing

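Over the alternatives, 734 member values were recomputed. Of these, 669 kept their side of the threshold, 59 lost a call, 6 gained one and 0 called values reversed. Values called in neither fit count among the 669 even where their sign changed. For example, ABCC1 between DMSOP and DMSOV kept its sign in 7 of 11 alternatives. The F-tests carry no direction. Samples were paired by cell line, and without that replicate block 21 calls were lost: the members called went from 2 to 0 (pracinostat, 6 h), 3 to 0 (vorinostat, 6 h), 6 to 0 (pracinostat, 14 d), 6 to 1 (vorinostat, 14 d), and for the change in effect between the times from 2 to 0 with pracinostat and 3 to 0 with vorinostat. Leaving out 1 line gave 1 to 3 and 1 to 4 members at 6 h, 1 to 5 and 4 to 6 at 14 d, 1 to 2 and 1 to 3 for the change between the times (pracinostat and vorinostat), and 1 to 3 for the difference between lines. Fits of only the groups compared gave 1 for pracinostat at 6 h, 3 for vorinostat at 14 d and 1 for the vorinostat change between the times. For pracinostat at 14 d these fits lost the calls of ABCB1 and ABCC4 (adjusted p = 0.0682 and 0.0599, edgeR). The cause of these moves was not tested.

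Among all genes, no block gave 577 and 1106 calls at 6 h in place of 5289 and 5790, 8 and 696 at 14 d in place of 3167 and 5274, and 75 and 252 in place of 2986 and 3605 for the change between the times. For pracinostat at 14 d, leaving out 1 line gave 1424 to 2766, only the groups compared 1950 and the mean of both DMSO sets 5008. Only the groups compared gave 2680 for vorinostat at 14 d and 2212 for its change between the times. Leaving out 1 line gave 1599 to 2892 for the pracinostat change and 1402 to 3657, in place of 2744, for the difference between lines. DESeq2 called 49 genes between the drugs at 6 h in place of 2. Library totals moved the median log2 change of all genes by over 0.1 for pracinostat at 6 h (0.03 to 0.13), vorinostat at 14 d (0.12 to 0.01) and the change between the times (0.06 to -0.09 and 0.09 to -0.07).

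Depth limits ABCB1, where lines with 0 counts in DMSO give lower bounds and SUDHL4 gives a fold only for pracinostat at 14 d, 2.602 (0.26 to 128), and ABCC5 in WSUDLCL2, where no fold can be given.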
